A study of Mus musculus with 12 samples.

Results

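The genes described here are the well-measured processed pseudogenes of single mouse oocytes. A gene belongs to them if GENCODE mouse release 21 (GRCm38) types it as processed_pseudogene or transcribed_processed_pseudogene and if it had at least 50 raw counts in each of 4 libraries, those of whole oocytes amplified for 10 and 14 cycles. The rule kept 76 of the 10237 genes of both types, 48 of the first and 28 of the second, among 55573 genes in all. A processed pseudogene arises when a messenger RNA is reverse transcribed and the copy is inserted elsewhere in the genome, as a rule without introns and without a promoter, and most copies lose their reading frame with time. In mouse oocytes some of these copies are transcribed and pair with the RNA of the parent gene, and Dicer processes the double-stranded RNA into endogenous small interfering RNAs (endo-siRNAs). Retrocopies of ribosomal protein genes are the most numerous kind in mammalian genomes.

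Poly(A) RNA was sequenced from germinal vesicle (GV) oocytes, the fully grown stage before meiosis resumes, taken from a B6D2F1 female aged 12 weeks. The 12 libraries form 6 groups of 2. Whole oocytes were amplified for 10, 14 or 18 cycles, and fractions of 1/2, 1/4 and 1/8 of a lysed oocyte were all amplified for 18 cycles, with ERCC spike-in RNA added to every sample. No group differed from another in genotype or treatment. The 2 libraries of a whole-oocyte group came from separate oocytes, and the 6 fraction libraries came from the lysates of only 2 other oocytes, so that fractions share oocytes. Which fraction came from which of the 2, and whether those of equal number belong together, is not stated. The p-values below therefore measure the spread between these samples, which may in part be technical. Effects of the cycle number or of the input cannot be told apart from those of the oocyte or its preparation.

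Counts on genes numbered 11597144 and 9189672 in the whole oocytes amplified for 10 cycles, 12349577 and 13806199 for 14, then 3017069 and 1706478 for 18. The fractions had 4024670 and 3598549 counts (1/2), 4027907 and 5049518 (1/4), and 11404262 and 1702062 (1/8). At this depth all 76 pseudogenes reached 50 counts in the libraries that chose them, but 13 and 11 did so in the whole oocytes at 18 cycles, 25 and 24 in 1/2, 27 and 38 in 1/4, and 70 and 16 in 1/8. Fold changes of the weaker genes thus rest on few counts at 18 cycles. Replicates of a group differed by more than counting noise in all 6 groups, with a chi-square per degree of freedom of 10.0 to 16.7. All 12 oocyte markers had counts in all 12 libraries, with Gdf9 the most abundant in 10 libraries and Padi6 in the other 2. Summed over these markers, CPM (the usual depth-scaled unit, here over the counts on genes) were 28448 and 23690 at 10 cycles, 27309 and 28121 at 14, 8056 and 6324 at 18, 7922 and 8907 in 1/2, 14139 and 14573 in 1/4, and 20332 and 18270 in 1/8. This sum thus differed between groups, though 1/2 overlapped the whole oocytes at 18 cycles, and not every marker followed it (Figla did not). The part of the oocyte markers in the results below was not tested. Markers of granulosa and cumulus cells summed to 84.3 and 46.5 CPM at 10 cycles, 63.0 and 96.8 at 14, 37.8 and 12.9 at 18, 14.7 and 17.0 in 1/2, 30.8 and 33.3 in 1/4, then 46.0 and 42.3 in 1/8. Of the 9, 3 were counted in every library, and Cyp19a1 was the most abundant in 10 libraries and Inha in the other 2. Blood markers summed to at most 1.52 CPM in any library, and 3 of 6, all globin genes (Hba-a1, Hba-a2 and Hbb-bt), were at 0 in every library.

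Together the 76 pseudogenes held 2722 and 2686 CPM in the whole oocytes at 10 cycles, 2841 and 3023 at 14, and 1835 and 2069 at 18. In the fractions they held 2316 and 2089 CPM (1/2), 2195 and 2134 (1/4), and 2453 and 2616 (1/8). The whole oocytes at 18 cycles had the lowest sums, the libraries at 10 and 14 cycles the highest, and every fraction library lay between them. This order did not hold without Speer5-ps1, when replicate 1 of 1/2 (2197) and both 1/8 libraries (2154 and 2179) exceeded replicate 2 at 10 cycles (2097) and replicate 2 of 1/2 (1981) was under replicate 2 of the whole oocytes at 18 cycles (1988). Without members that share exonic bases with other genes, replicate 1 of 1/2 (1352) also exceeded replicate 2 at 10 cycles (1348). Because the members were chosen on the 10- and 14-cycle libraries, a lower sum elsewhere is in part built in. Just inside the threshold, with lowest counts of 51, 52 and 53, were Gm19224 (a copy related to Galnt3), Gm19096 (related to Dlgap5) and Gm13491. Just outside it, with 49, 48 and 48, were Gm6916, Tdpx-ps1 and Gm6166.

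The parent gene was taken as the closest protein-coding gene by blastn. It was found for 72 of the 76 pseudogenes, with 69 distinct parents, and not for Cldn25-ps, Gm6150, A930017M01Rik and Gm371. Identity to the parent ran from 70.8% to 99.8% with a median of 88.9%. It was at least 95% for 18 and under 80% for 11. Of the 72 copies, 49 covered at least 90% of the parent's coding sequence. The longest open frame was under 50% of the parent's in 51 and at least 90% of it in 7. Of these 7, 6 also had at least 80% of the parent's coding sequence aligned: Rpl37rt (97 codons, parent 97), Gm5434 (185, parent 185), Gm15421 (122, parent 122), Rps4l (262, parent 263), Gm6578 (177, parent 187) and Gm33700 (231, parent 186). The copies were short, with a median of 1277 exonic bases against 4729 for the 9251 protein-coding genes that passed the same count rule. Their median CPM was 14.6 over the libraries of the rule, against 44.9 for those coding genes and 16.9 for 271 lincRNAs under the same rule. Per length the medians were 12.6, 9.83 and 13.8 CPM per kb, but a floor on counts by itself favours short genes on that scale.

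By position, 45 of the 76 were intergenic, 10 lay in an intron of another gene (7 on the opposite strand and 3 on the same), and 21 shared exonic bases with another gene. For 9 of these over 50% of the exonic bases were shared, and 4 lay wholly on exons of another gene: Gm49591 on E330011O21Rik, Gm31941 on C86187 and Gm16042 on Glcci1 and Gm45062, all on the opposite strand, and Gm15725 on Lrrc58 on the same strand. Counts of pairs on opposite strands cannot be told apart with certainty, since the strand setting of the counting was not settled here. Strand cannot separate the reads of Gm15725 and Lrrc58, so their counts are uncertain too. Among genes of the whole annotation that lie wholly on exons of opposite-strand genes, 163 of 238 (68.5%) had a count in these tables, against 150 of 182 (82.4%) wholly on exons of same-strand genes and 55.6% of 35939 genes that share no exonic base. A processed pseudogene usually has 1 exon, and 48 had 1 block, while 28 had at least 2. The copy and its parent were on the same chromosome in 16 cases. Chromosome 10 carried 8 of the 76, and chromosomes 6 and 13 carried 7 each.

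The tally of reads that map to several places was 0 in all 12 libraries, and how such reads were handled was not settled here. If they were left out, a gene that resembles its copies loses reads. The share of 50-base words found in no other gene's transcripts had a median of 97.5% over the pseudogenes and of 79.6% over the parents. It was under 50% for 11 pseudogenes and 16 of the 69 parents. In CPM per kb the pseudogene was above its parent in 43 of 72 pairs, with a median ratio of 2.46, and under 1/10 of it in 7. The ratio uses the libraries in which the pseudogenes, but not the parents, were chosen for high counts, which favours the pseudogene. Taken without a length correction, the median ratio of member to parent in CPM per kb became 0.899, so its direction depends on that correction. Of the 31 pairs in which both genes had at least 80% unique words, the pseudogene was above per kb in 15. Ratios to a parent with few unique words are therefore uncertain. The share of 15 holds per kb only. Without the length correction some of the 15 were under the parent, such as Gm13384 (2.07 per kb, 0.443 without) and Gm5790 (3.40 and 0.498). Others stayed above it, such as Gm15681 (13.1 and 6.51). Unique words take no account of shared exons, so these 31 pairs include members whose counts are uncertain. On the opposite strand, 80.8% of the bases of Gm13384 lie on Gm10857 and 91.4% of those of Gm5790 on 2010001K21Rik. Identity, frames and unique words of a pseudogene come from 1 of its transcripts, while counts and lengths cover all its exons. That transcript holds only 10.7% of the exonic bases of 4931440P22Rik, 16.6% of Speer5-ps1, 17.8% of 2810025M15Rik and 39.1% of Rpl37rt.

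**Figure D1:**
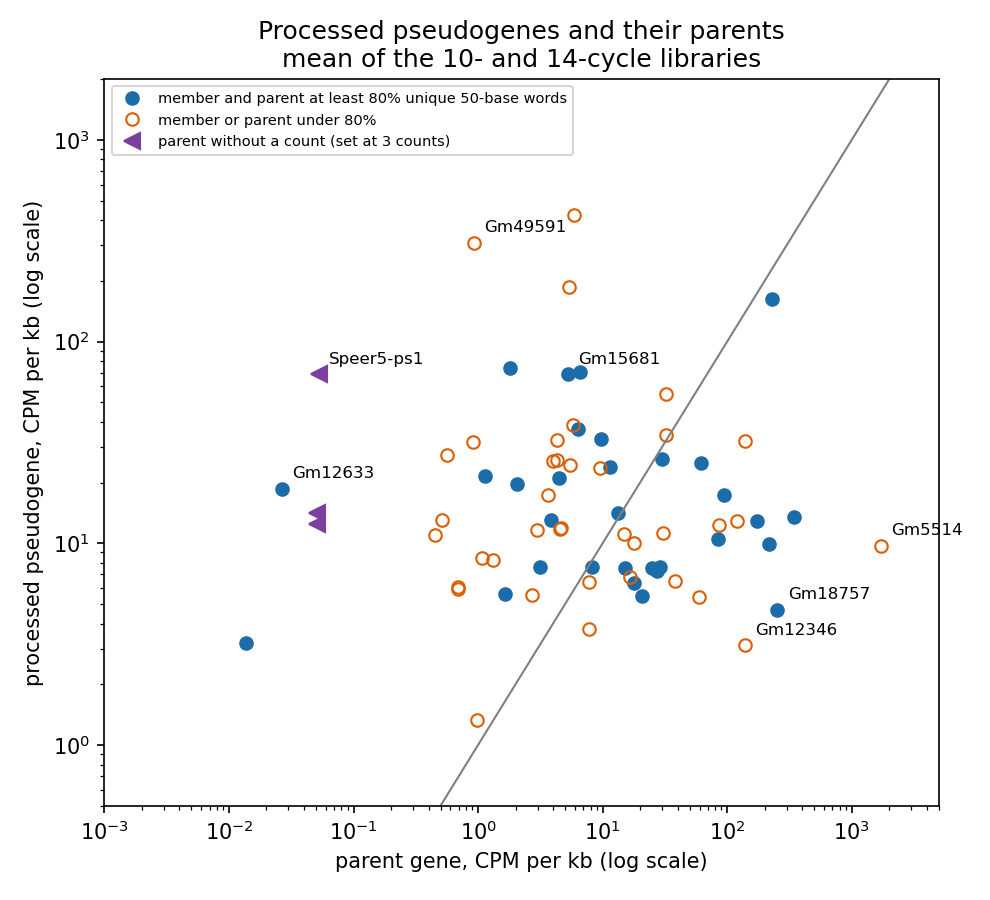
Level of 72 processed pseudogenes (vertical axis) against that of the parent gene (horizontal axis), both as mean CPM per kb of exonic length over the 4 whole-oocyte libraries at 10 and 14 cycles, on log scales, with the line of equality. Filled points are pairs with at least 80% unique 50-base words in both genes, open points are the others, and triangles are 3 pairs whose parent had 0 counts and is drawn at 3 counts. Points lie above the line in 43 pairs.

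The fractions compare a gene's share of the RNA between parts of an oocyte and whole oocytes, which were other cells. An edgeR quasi-likelihood fit over 14788 genes set every fraction against both whole oocytes amplified for 18 cycles, so that the 3 comparisons share these whole oocytes. Of the 76 pseudogenes 75 could be tested, and Gm13491 had too few counts. After median-ratio scaling 10 pseudogenes were higher in 1/8 at an adjusted p under 0.01 and 3 were lower, where 7.06% of all genes were higher and 8.69% lower. Among coding genes under the same count rule 9.86% were higher and 11.1% lower, and among the lincRNAs 24.0% were higher and 2.95% lower. In 1/2 and in 1/4 edgeR called 0 pseudogenes higher and 0 lower, against 0.0811% (up) and 0.0406% (down) of all genes in 1/2, and 0.0338% (up) and 0.426% (down) in 1/4. At an unadjusted p under 0.05 there were 6 in 1/2 (8%, against 13.1% of all genes) 13 in 1/4 (17.3%, against 15.8%) and 34 in 1/8 (45.3%, against 39.2%). DESeq2 called 1 higher and 0 lower in 1/2 and in 1/4, where it called 0.697% of all genes higher in 1/2 and 0.473% in 1/4. Whether the fractions differ from each other was not tested.

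The median log2 fold change of the 75 was 0.28 in 1/2, 0.59 in 1/4 and 1.24 in 1/8, against -0.01, 0.05 and 0.03 over all genes tested. With at least 10 counts in every library, which left 33 pseudogenes, the median log2 fold change of the members in 1/4 was 0.36, and the median log2 fold change of the members in 1/8 was 0.69. The value in 1/4 was also 0.39 without replicate 2 of 1/4 and 0.91 without members that overlap other exons. The median log2 fold change of the members in 1/2 was 0.13 without replicate 2 of 1/2, 0.44 without replicate 2 of the whole oocytes at 18 cycles and 0.42 with at least 100 counts in the libraries of the rule. In 1/8 the log2 fold change was above 0 for 61 of the 75. The lincRNAs had a median of 1.56 in 1/8, the coding genes 0.03 and the parents of the pseudogenes 0.45, with 7 of 65 parents higher and 5 lower. The 54 tested pseudogenes that share no exonic base with another gene had a median of 1.27, with 7 higher and 1 lower. Scaled to the ERCC molecules instead, the medians over all genes moved to -1.997, -2.69 and -4.92, and those of the pseudogenes to -1.71, -2.17 and -3.73. The whole oocytes at 18 cycles had only 1611 and 1474 ERCC counts, so the size of these falls need not equal the change of input. With that scaling 22 pseudogenes were lower in 1/2, 37 in 1/4 and 64 in 1/8, beside 52%, 69.7% and 87.5% of all genes, and edgeR called 0 higher in each fraction, as it did for 0% of all genes. In either direction 36, 54 and 70 had an unadjusted p under 0.05 (48%, 72% and 93.3%, against 70.7%, 81.4% and 92.1% of all genes), and no other tool was run with that scaling. A rise below thus means a larger share of the library after median-ratio scaling, and against the spike-in the log2 fold change of each of the 10 was negative, though not past the threshold for Gm10509 (edgeR adjusted p = 0.303) and Gm15754 (edgeR adjusted p = 0.222). The count of 10 was 5 without either whole oocyte at 18 cycles or without replicate 1 of 1/8, and the count of 3 was 1 without replicate 2 of the whole oocytes at 18 cycles or of 1/8.

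**Figure D2:**
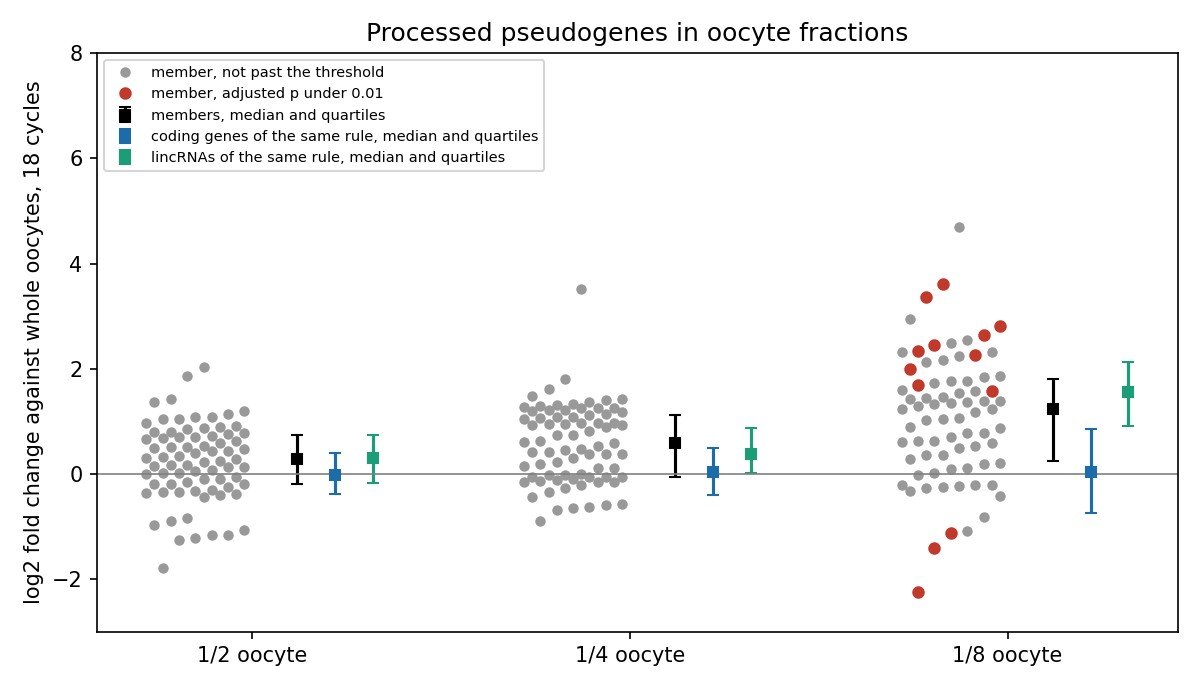
Log2 fold change of 75 processed pseudogenes in 1/2, 1/4 and 1/8 of an oocyte against whole oocytes at 18 cycles, after median-ratio scaling, with red points at an edgeR adjusted p under 0.01. Squares with bars are the median and quartiles of the pseudogenes, of coding genes and of lincRNAs under the same count rule. The median of the pseudogenes is 1.24 in 1/8, and all of these medians are negative when the libraries are scaled to the ERCC molecules.

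Parents listed as known for oocyte endo-siRNAs made from pseudogenes had 2 copies among the 76. Gm15681 (ENSMUSG00000086842, chr8:99145386-99148089, minus strand, in an intron of Cdh8 on the same strand) is a copy of Ppp4r1, a regulatory subunit of protein phosphatase 4. It had CPM of 214 and 153 in whole oocytes at 10 cycles, 193 and 184 at 14, 72.3 and 70.3 at 18, 53.4 and 59.2 in 1/2, 90.6 and 104 in 1/4, and 123 and 157 in 1/8. Both 1/8 libraries lay above both whole oocytes at 18 cycles and both 1/2 libraries below them. None of these differences passed the threshold, with a log2 fold change of 0.77 in 1/8 (edgeR adjusted p = 0.0536). The copy is 89.0% identical to Ppp4r1, its longest open frame has 102 codons where the parent has 951, and its level was 13.1 times that of Ppp4r1 per kb, in a pair with 97.8% and 98.5% unique words. Ppp4r1 itself had 28.9 and 24.2 CPM at 10 cycles, 31.9 and 29.3 at 14, and 21.9 and 13.5 at 18.

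Gm49591 (ENSMUSG00000116798, chr16:78251053-78251577, plus strand) is a copy of Hdac1, a histone deacetylase, at 83.5% identity. Its CPM were 152 and 182 at 10 cycles, 170 and 147 at 14, 38.4 and 44.0 at 18, 109 and 85.0 in 1/2, 76.5 and 95.7 in 1/4, and 186 and 191 in 1/8. All 6 fraction libraries lay above both whole oocytes at 18 cycles, and the 1/8 libraries were the highest of all 12. In 1/8 it rose by 1.99 on the log2 scale (SE 0.31, edgeR adjusted p = 9.91e-05), while 1.21 in 1/2 (adjusted p = 0.0624 by edgeR) and 0.92 in 1/4 (adjusted p = 0.131 by edgeR) did not pass. All of its bases lie on exons of E330011O21Rik on the opposite strand, which had 3979 and 3705 counts at 10 cycles, 296 and 192 at 18 cycles, and 4897 and 871 in 1/8. Reads of the pair are thus uncertain, and the ratio of 336 to Hdac1 per kb rests on a parent with 41.3% unique words. A 90-base stretch of each copy is shown beside the coding sequence of its parent, though its differences do not stand for the whole copy. These are the first bases of the longest gap-free alignment to the coding sequence, written 5′ to 3′ along the RNA, with capitals where copy and parent differ. The Gm15681 stretch is chr8:99146728-99146817 (minus strand) and has 5 differences from bases 1382 to 1471 of the Ppp4r1 coding sequence, and that of Gm49591 is chr16:78251365-78251454 (plus strand) with 20 differences from bases 328 to 417 of Hdac1.
Gm15681: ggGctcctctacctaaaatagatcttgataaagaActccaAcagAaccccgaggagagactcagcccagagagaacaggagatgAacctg
Ppp4r1: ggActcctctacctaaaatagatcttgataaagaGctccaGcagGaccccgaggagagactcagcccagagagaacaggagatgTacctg
Gm49591: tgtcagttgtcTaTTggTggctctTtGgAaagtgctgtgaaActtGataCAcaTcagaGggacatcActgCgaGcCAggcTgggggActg
Hdac1: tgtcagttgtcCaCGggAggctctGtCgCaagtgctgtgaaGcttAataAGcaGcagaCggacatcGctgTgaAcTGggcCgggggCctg

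**Figure D3:**
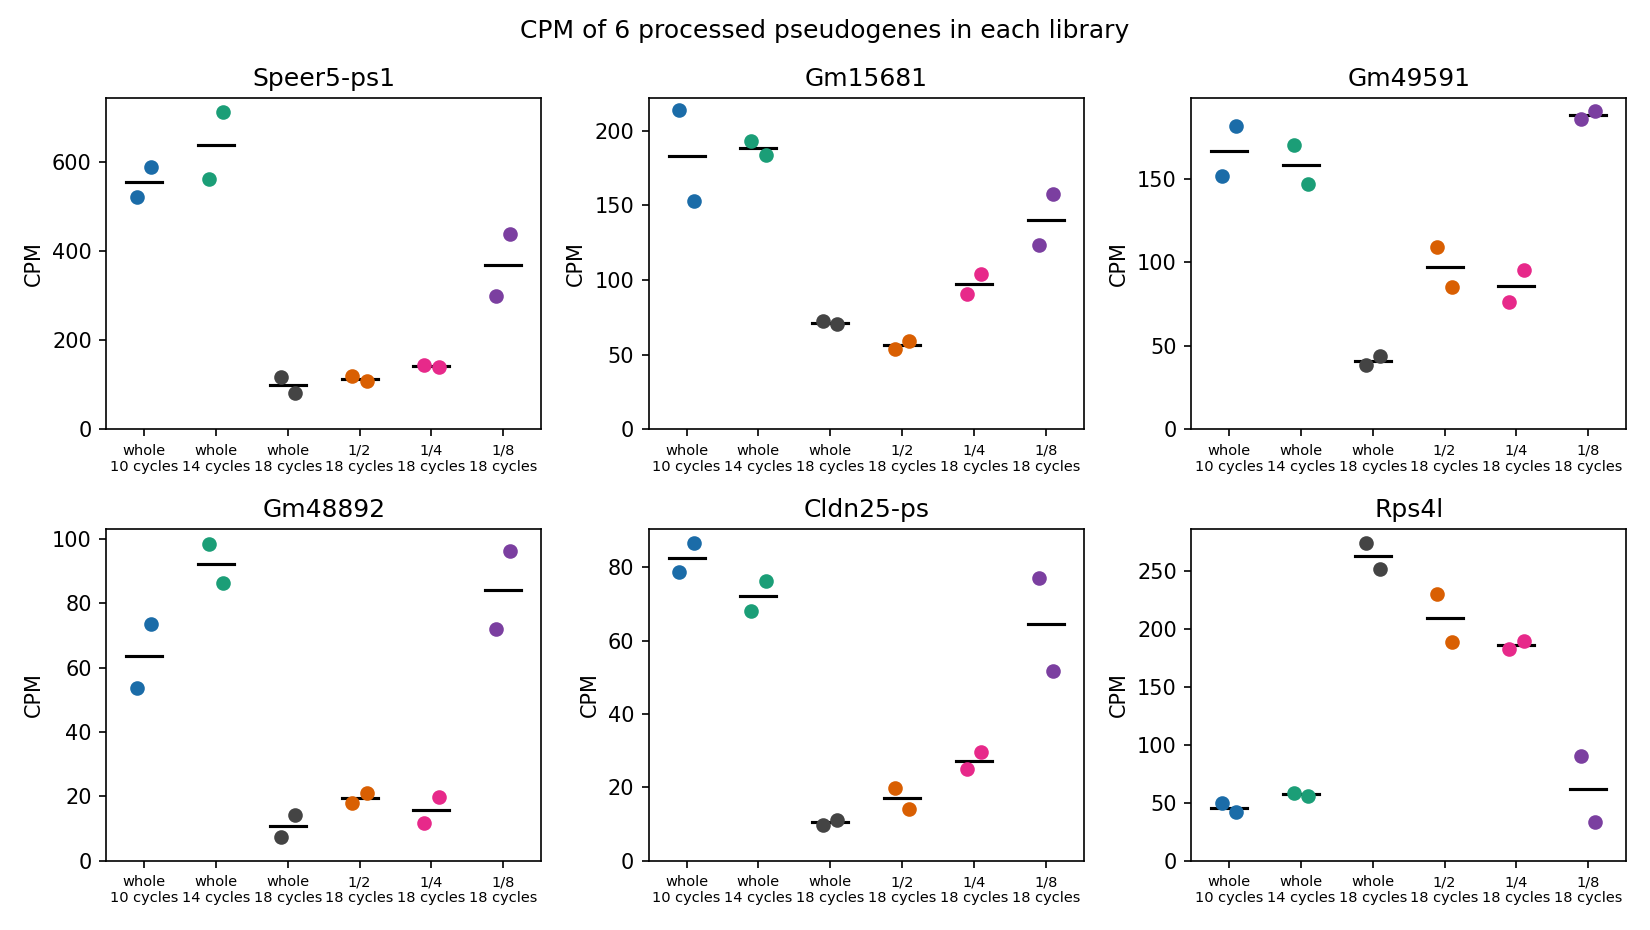
CPM of 6 processed pseudogenes in the 12 libraries, by group, with a point for each library and a bar for the mean of the 2. Speer5-ps1, Gm15681, Gm49591, Gm48892 and Cldn25-ps were lowest in groups at 18 cycles other than 1/8, and Rps4l was highest in the whole oocytes at 18 cycles. Axes start at 0.

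Speer5-ps1 (ENSMUSG00000091358, chr10:44169911-44219583, plus strand, transcribed type) had the most counts of the 76 over the 4 libraries of the rule. The Speer genes encode glutamate-rich proteins named for their expression in spermatogenesis. The pseudogene had CPM of 521 and 589 at 10 cycles, 562 and 711 at 14, 117 and 80.9 at 18, 119 and 108 in 1/2, 144 and 140 in 1/4, then 299 and 438 in 1/8. The 10- and 14-cycle libraries were all above the rest, and 1/8 lay between them and the other 18-cycle libraries. The rise in 1/8 was 1.70 on the log2 scale (SE 0.29, edgeR adjusted p = 0.000268). It spans 8634 exonic bases in 8 blocks, of which 5.14% lie on Gm18669 on the opposite strand. Its closest coding gene, Gm21149 on chromosome 5 (89.3% identity, 18.0% unique words), had 0 counts in every library, so the pseudogene was at least 1309-fold higher per kb, taking 3 counts over the 4 libraries for the parent. Such floors, and the intervals given with ratios, cover counting error only. The stretch shown for this pair, bases 491 to 580 of the pseudogene's transcript, has 10 differences from bases 238 to 327 of the coding sequence of Gm21149.
Speer5-ps1: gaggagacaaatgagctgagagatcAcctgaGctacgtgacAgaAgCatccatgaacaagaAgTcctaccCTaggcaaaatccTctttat
Gm21149: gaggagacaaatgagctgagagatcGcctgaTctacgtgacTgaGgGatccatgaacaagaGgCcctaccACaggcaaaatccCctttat

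Other strongly expressed pseudogenes outside the listed families were Gm6201, Cldn25-ps and Gm5946. Gm6201 (ENSMUSG00000115247, chr14:105199326-105201099, minus strand, intergenic) is a copy of Lcp1, the actin-bundling protein L-plastin. It had 113 and 69.3 CPM at 10 cycles, 168 and 153 at 14, 36.5 and 19.3 at 18, 18.9 and 39.5 in 1/2, 84.9 and 88.9 in 1/4, and 107 and 86.4 in 1/8. Both 1/4 and both 1/8 libraries were above the whole oocytes at 18 cycles, and 1/2 overlapped them. The log2 fold change was 1.59 in 1/8 (SE 0.37, edgeR adjusted p = 0.00309) and 1.49 in 1/4, where the edgeR adjusted p was 0.0448. The call in 1/8 was lost without replicate 2 of the whole oocytes at 18 cycles or replicate 1 of 1/8 (edgeR adjusted p up to 0.0464). Per kb it was 10.7 times its parent, which is 93.6% identical with 88.6% unique words.

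Cldn25-ps (ENSMUSG00000105298, chr9:49047602-49048294, minus strand, intergenic) is named after a claudin, a protein of tight junctions, and had no accepted parent. Its CPM were 78.6 and 86.5 at 10 cycles, 68.1 and 76.3 at 14, 9.61 and 11.1 at 18, 19.9 and 14.2 in 1/2, 24.8 and 29.5 in 1/4, and 77.2 and 51.7 in 1/8. Every fraction library was above both whole oocytes at 18 cycles. The rise in 1/8 was 2.46 (SE 0.41, edgeR adjusted p = 0.000197), on 29 and 19 counts in the whole oocytes at 18 cycles. Gm5946 (ENSMUSG00000048592, chrX:150220716-150226021, minus strand, intergenic) is a copy of Bmi1, a Polycomb protein, at 96.4% identity. It had 91.9 and 62.5 CPM at 10 cycles, 76.4 and 42.3 at 14, 7.95 and 15.2 at 18, 14.2 and 26.4 in 1/2, 42.0 and 15.1 in 1/4, and 62.7 and 69.3 in 1/8. Only in 1/8 among the fractions did both libraries lie above both whole oocytes at 18 cycles, a rise of 2.34 (SE 0.50, edgeR adjusted p = 0.00166) that did not pass without replicate 1 of the whole oocytes at 18 cycles (edgeR adjusted p = 0.0533). Bmi1 was more abundant per kb, the ratio being 0.404, and its own log2 fold change in 1/8 was 0.21 (edgeR adjusted p = 0.682).

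Ribosomal protein genes were the parents of 14 of the 76, the largest family. As a group these copies summed to 399 and 432 CPM at 10 cycles, 400 and 427 at 14, 815 and 805 at 18, 1277 and 905 in 1/2, 800 and 787 in 1/4, and 549 and 486 in 1/8. Unlike the sum over all members, the sum in every library at 18 cycles exceeded that in each library at 10 or 14 cycles. Among whole oocytes only Rpl37rt, Rps4l, 4931440P22Rik and 2810025M15Rik had a higher mean at 18 cycles than over 10 and 14, and the other 10 copies had a lower mean, so the sum does not describe most of the family. The transcript of the copy is 39.1%, 83.7%, 10.7% and 17.8% of the exonic bases of these genes in that order. Counts outside the copies thus enter the sum. The median log2 fold change of the 13 tested was 1.38 in 1/8, with 3 lower and 1 higher (8.69% and 7.06% of all genes). The 3 that were lower are described below. Per kb, 11 of the 14 were above the parent, but the parents had a median of only 30.8% unique words. Sides also changed without the length correction, from 1.68 to 0.974 for Rps4l and from 0.483 to 1.36 for Rpl19-ps3. Ribosomal ratios are therefore among the least certain.

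Rps4l (ENSMUSG00000063171, chr6:148354656-148355598, plus strand, in an intron of Tmtc1 on the opposite strand) is a copy of Rps4x, a protein of the small ribosomal subunit, with an open frame of 262 codons where Rps4x has 263. Its CPM were 49.4 and 41.9 at 10 cycles, 58.8 and 56.0 at 14, 274 and 252 at 18, 231 and 189 in 1/2, 183 and 190 in 1/4, then 90.1 and 33.5 in 1/8. The whole oocytes at 18 cycles were the highest of all 12 libraries, and the fractions lay below them. In 1/8 it fell by 2.24 on the log2 scale (SE 0.35, edgeR adjusted p = 0.000107). Rps4x was instead lowest in the whole oocytes at 18 cycles, with 59.4 and 53.8 CPM at 10 cycles, 46.9 and 51.6 at 14, 8.62 and 9.38 at 18, 31.3 and 19.2 in 1/2, 21.6 and 30.1 in 1/4, then 52.8 and 60.5 in 1/8. The parent rose in 1/8 by 2.46 (edgeR adjusted p = 0.000246) with median-ratio scaling. The difference between the 2 genes was not tested, and Rps4x has 27.8% unique words where Rps4l has 82.0%. Identity of the pair is 79.8%, and the first 90 bases of both coding sequences (chr6:148354710-148354799 in Rps4l, plus strand) have 15 differences.
Rps4l: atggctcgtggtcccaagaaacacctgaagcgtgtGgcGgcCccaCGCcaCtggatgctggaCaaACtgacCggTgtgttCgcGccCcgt
Rps4x: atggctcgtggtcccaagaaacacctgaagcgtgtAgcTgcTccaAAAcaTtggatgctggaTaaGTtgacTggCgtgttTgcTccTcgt

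The other copies that fell in 1/8 were 4931440P22Rik and 2810025M15Rik. 4931440P22Rik (ENSMUSG00000074580, chr3:65507257-65529379, minus strand) has 4437 exonic bases in 6 blocks, and the transcript that is a copy of Rpl29 has 474 bases. Its counts thus cover mostly bases outside the copy. Of its bases 5.03% lie on Tiparp on the opposite strand, which had 10441 and 9204 counts at 10 cycles. It had 55.5 and 47.1 CPM at 10 cycles, 57.7 and 49.3 at 14, 136 and 179 at 18, 277 and 171 in 1/2, 156 and 156 in 1/4, then 84.4 and 49.4 in 1/8. The 18-cycle libraries other than 1/8 were all above 100 CPM, and the log2 fold change in 1/8 was -1.41 (SE 0.33, edgeR adjusted p = 0.00300). 2810025M15Rik (ENSMUSG00000049881, chr1:157412352-157420236, plus strand) holds a copy of Rpl37a, and 17.3% of its bases lie on Rasal2 on the opposite strand. The transcript of the copy is 17.8% of its exonic bases. Its CPM were 34.2 and 39.2 at 10 cycles, 33.4 and 31.8 at 14, 94.1 and 90.8 at 18, 94.4 and 99.2 in 1/2, 122 and 96.8 in 1/4, and 44.8 and 54.1 in 1/8. For this gene 1/8 lay between the 10- and 14-cycle libraries and the other 18-cycle libraries, with a log2 fold change of -1.12 in 1/8 (SE 0.30, edgeR adjusted p = 0.00886). This call was lost whichever of the 8 libraries was left out (edgeR adjusted p up to 0.0667) and with TMM scaling (0.0132). That of 4931440P22Rik was lost without replicate 2 of the whole oocytes at 18 cycles or of 1/8 (edgeR adjusted p up to 0.0471).

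Rpl37rt (ENSMUSG00000072692, chr5:115102923-115110268, minus strand) keeps the whole frame of Rpl37, a protein of the large ribosomal subunit, at 99.7% identity. CPM of 134 and 165 were counted at 10 cycles, 118 and 144 at 14, 272 and 237 at 18, 590 and 387 in 1/2, 256 and 251 in 1/4, and 197 and 243 in 1/8. Both 1/2 libraries were the highest of all, and 1/4 lay close to the whole oocytes at 18 cycles. No change passed the threshold, with log2 fold changes of 0.91 in 1/2 (edgeR adjusted p = 0.133) and -0.41 in 1/8 (edgeR adjusted p = 0.297). Of its 50-base words 8.98% are unique, so its counts and its ratio of 34.8 to Rpl37 per kb are uncertain. The first 90 coding bases, in which the copy and the parent do not differ, hold no 50-base word that tells the 2 genes apart.
Rpl37rt: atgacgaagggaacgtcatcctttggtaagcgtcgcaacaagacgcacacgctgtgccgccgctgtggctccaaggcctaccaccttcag
Rpl37: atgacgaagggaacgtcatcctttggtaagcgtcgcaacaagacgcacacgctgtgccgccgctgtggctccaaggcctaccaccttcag

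Rpl19-ps3, a copy of Rpl19, had 11.5 and 9.79 CPM at 10 cycles, 10.9 and 11.1 at 14, 1.66 and 6.45 at 18, 5.22 and 3.61 in 1/2, 3.72 and 4.16 in 1/4, and 5.00 and 9.40 in 1/8. Its 1/8 libraries overlapped the whole oocytes at 18 cycles (log2 fold change 0.63, edgeR adjusted p = 0.592).

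A list of genes of the oocyte and early embryo, which also holds the ubiquitous Elob, matched the parents of 4 copies. Of the 4, edgeR called 1 higher in 1/8 (7.06% of all genes), DESeq2 also called 1 lower (10.7%), and the median log2 fold change was 1.68. Gm48892 (ENSMUSG00000112675, chr10:26742079-26742556, minus strand) is a copy of the start of Nlrp9b, a NOD-like receptor gene of the oocyte. CPM were 53.5 and 73.7 at 10 cycles, 98.5 and 86.2 at 14, 7.29 and 14.1 at 18, 17.9 and 21.1 in 1/2, 11.7 and 19.8 in 1/4, then 72.1 and 96.4 in 1/8. The 1/8 libraries were back in the range of 10 and 14 cycles, and 1/4 overlapped the whole oocytes at 18 cycles. The rise in 1/8 was 2.81 (SE 0.44, edgeR adjusted p = 0.000103). Nlrp9b moved the same way, from 157 and 186 CPM in whole oocytes at 18 cycles to 581 and 655 in 1/8 (log2 fold change 1.64, edgeR adjusted p = 0.000307), and had 900 and 846 CPM at 10 cycles. Per kb the copy reached 0.708 of its parent, with 100% and 93.8% unique words in the pair. However, 52.5% of its bases lie on Gm48893 on the opposite strand, which had 1785 and 1911 counts at 10 cycles, 82 and 62 at 18 cycles, then 2426 and 420 in 1/8. The first 90 bases of the copy, at chr10:26742467-26742556 (minus strand), are shown as the part nearest to where translation of Nlrp9b starts, and have 12 differences from it.
Gm48892: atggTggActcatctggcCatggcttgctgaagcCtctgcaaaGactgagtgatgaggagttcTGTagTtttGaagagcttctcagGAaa
Nlrp9b: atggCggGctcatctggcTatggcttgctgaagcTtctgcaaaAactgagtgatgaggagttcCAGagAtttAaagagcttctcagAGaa

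Gm31941 (ENSMUSG00000109637, chr7:46975366-46975715, plus strand) is a copy of Elob, a subunit of elongin and of ubiquitin ligases. It had 165 and 110 CPM at 10 cycles, 166 and 152 at 14, 265 and 477 at 18, 162 and 258 in 1/2, 303 and 206 in 1/4, and 192 and 216 in 1/8. Both 1/8 libraries were lower than either whole oocyte at 18 cycles, at a log2 fold change of -1.08 that did not pass (SE 0.33, edgeR adjusted p = 0.0191), while DESeq2 called it lower (adjusted p = 0.00951), as did edgeR without a filter (adjusted p = 0.00318). Its 350 bases lie wholly on exons of C86187 on the opposite strand, which had 13454 and 9145 counts at 10 cycles, 3444 and 3366 at 18 cycles, and 13171 and 2505 in 1/8, so its level is uncertain. The remaining copies of this list were far below abundant parents. Gm18757, a copy of Nlrp5, a gene of the subcortical maternal complex, had 9.05 and 18.7 CPM at 10 cycles, 13.5 and 17.6 at 14, 3.31 and 4.69 at 18, 4.72 and 6.95 in 1/2, 2.98 and 6.93 in 1/4, and 11.9 and 5.88 in 1/8. Per kb that was 0.0186 of Nlrp5. Gm5705, a copy of Eif4e1b, the cap-binding factor of the oocyte, stood at 0.0394 of its parent.

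Genes with a Zfp symbol, for zinc finger protein, were the parents of 8 copies, a grouping made after the parents were known. Each of the 8 was above its parent per kb, with a median ratio of 8.64, and 6 lay on the chromosome of the parent. Without the length correction the ratios were 1.003 (Gm3333), 1.19, 1.61, 3.03, 3.87, 4.93, 247 and 523 (Gm12633). The 8 copies summed to 142 and 149 CPM at 10 cycles, 145 and 148 at 14, 20.5 and 24.6 at 18, 29.3 and 33.3 in 1/2, 32.5 and 52.5 in 1/4, and 91.7 and 98.7 in 1/8. All fraction libraries were above the whole oocytes at 18 cycles and below those at 10 and 14 cycles. Of the 8, 1 was higher in 1/8 (7.06% of all genes), and the median log2 fold change was 1.99. Gm12633 (ENSMUSG00000080756, chr4:90359622-90361326, minus strand, intergenic) is a copy of Zfp352, which lies 133920 bases away. It had 34.2 and 29.4 CPM at 10 cycles, 39.4 and 24.1 at 14, 4.64 and 4.10 at 18, 7.21 and 7.50 in 1/2, 5.71 and 9.11 in 1/4, and 14.5 and 20.6 in 1/8. Every fraction library was above both whole oocytes at 18 cycles, but the log2 fold change of 1.77 in 1/8 did not pass (SE 0.58, edgeR adjusted p = 0.0258). Zfp352 had 3 counts over the 4 libraries at 10 and 14 cycles, so the ratio per kb was 698, with a 95% counting interval of 239 to 3386. Its stretch of 90 bases at chr4:90360640-90360729 (minus strand) has 7 differences from bases 549 to 638 of the Zfp352 coding sequence, of whose words 91.3% are unique, and is shown as that of the nearest relative of a parent with almost no counts.
Gm12633: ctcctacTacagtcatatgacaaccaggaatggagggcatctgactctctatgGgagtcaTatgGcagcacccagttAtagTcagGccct
Zfp352: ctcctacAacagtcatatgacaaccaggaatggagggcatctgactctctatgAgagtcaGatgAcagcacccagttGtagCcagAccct

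Gm10509, a copy of Zfp983, was named after its values were seen, as the zinc finger copy that rose. It had 12.7 and 10.2 CPM at 10 cycles, 8.83 and 12.2 at 14, 0.994 and 0.586 at 18, 0.497 and 1.39 in 1/2, 2.73 and 3.76 in 1/4, then 7.98 and 16.5 in 1/8. With 3 and 1 counts in the whole oocytes at 18 cycles, the rise of 3.62 in 1/8 (SE 0.95, edgeR adjusted p = 0.00720) is poorly bounded in size. It did not pass without either whole oocyte at 18 cycles, either 1/8 library or replicate 2 of 1/4 (edgeR adjusted p up to 0.0543). Gm3333, a copy of Zfp932 on chromosome 13, had 28.0 and 41.6 CPM at 10 cycles, 25.3 and 29.1 at 14, 2.32 and 5.86 at 18, 5.22 and 7.78 in 1/2, 3.72 and 13.1 in 1/4, and 17.7 and 14.1 in 1/8. Its log2 fold change of 1.84 in 1/8 did not pass (edgeR adjusted p = 0.0476). Zfp813-ps, placed by its closest coding gene Gm29106 outside this group, had 14.3 and 10.3 CPM at 10 cycles, 16.0 and 15.0 at 14, 1.66 and 2.34 at 18, 1.49 and 5.00 in 1/2, 5.96 and 2.97 in 1/4, and 5.09 and 10.6 in 1/8.

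Listed glycolytic enzymes were the parents of 3 copies, with a median log2 fold change of 1.19 in 1/8. There edgeR called 0 of them (15.7% of all genes) and DESeq2 0 (19.2%), and 1 had an unadjusted p under 0.05 (39.2%). Gm5514, a copy of lactate dehydrogenase B (Ldhb) at 98.0% identity, was the weakest of all relative to its parent, at 0.00572 per kb. It had 8.11 and 10.8 CPM at 10 cycles, 8.66 and 11.5 at 14, 12.3 and 5.86 at 18, 7.45 and 11.7 in 1/2, 8.94 and 12.9 in 1/4, then 11.3 and 5.29 in 1/8. The groups overlapped throughout. Gm5371, a copy of pyruvate kinase (Pkm), had 7.59 and 5.88 CPM at 10 cycles, 13.9 and 13.8 at 14, 5.97 and 1.17 at 18, 0.497 and 2.78 in 1/2, 3.48 and 8.52 in 1/4, and 5.35 and 15.3 in 1/8. Its 1/8 libraries also overlapped the whole oocytes at 18 cycles. Gm8609, a copy of Gapdh, was at 6.25 times its parent per kb, but Gapdh has only 9.57% unique words.

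Gm5177 (ENSMUSG00000098065, chr10:10605945-10616313, plus strand) and Gm10364 (ENSMUSG00000072492, chr14:55038462-55042979, plus strand) both aligned best to Gm10358, a coding gene with 7.49% unique words and 0 counts in all libraries. Gapdh aligned almost as well (1388 against 1401 bits for Gm5177, 1338 against 1347 for Gm10364), so their parent is not settled. If the parent is Gm10358, they were at least 243-fold and at least 277-fold above it per kb, against 3 counts over the 4 libraries, and against Gapdh the ratios would be far smaller. Gm5177 had 42.9 and 49.4 CPM at 10 cycles, 47.5 and 48.5 at 14, 7.62 and 21.7 at 18, 11.7 and 14.5 in 1/2, 10.4 and 19.4 in 1/4, and 29.7 and 26.4 in 1/8. Gm10364 had 20.1 and 11.5 CPM at 10 cycles, 15.0 and 28.6 at 14, 2.98 and 1.76 at 18, 7.45 and 2.78 in 1/2, 2.98 and 9.90 in 1/4, and 10.3 and 17.0 in 1/8. Both 1/8 libraries were above both whole oocytes at 18 cycles for either gene, at log2 fold changes of 0.77 and 2.25 that did not pass (edgeR adjusted p = 0.262 and 0.0320).

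Chaperone genes on the list had 2 copies, both well below the parent. Gm12346, a copy of Hsp90aa1 at 99.5% identity, was at 0.0226 of it per kb, with 6.21 and 8.81 CPM at 10 cycles, 6.32 and 6.81 at 14, 1.66 and 0.586 at 18, 1.49 and 2.78 in 1/2, 1.49 and 4.95 in 1/4, and 5.17 and 7.64 in 1/8. Gm9403, a copy of Hsp90ab1, was at 0.0739. In 1/8 edgeR called 0 of the 2 (15.7% of all genes), both had an unadjusted p under 0.05 (39.2%), and DESeq2 called 1 higher (8.48%). Translation factors with an Eif or Eef symbol also had 2 copies, at 0.0912 (Gm7658, Eif3m) and 0.0394 (Gm5705, Eif4e1b) of the parent. Of these, edgeR called 0 in 1/8 (15.7% of all genes) and DESeq2 0 (19.2%), and 1 had an unadjusted p under 0.05 (39.2%). The short list of cytoskeletal symbols matched 1 parent, Actb, and its copy Gm15725 was at 0.124 of it. In 1/8 this copy was called neither by edgeR (15.7% of all genes) nor by DESeq2 (19.2%), and it had no unadjusted p under 0.05 (39.2%).

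Ube2f, which conjugates NEDD8, had 1 copy. Gm5434 (ENSMUSG00000059301, chr12:36090379-36091829, plus strand, 6 bases from Bzw2) keeps the whole frame of 185 codons at 93.1% identity. It had 105 and 113 CPM at 10 cycles, 95.5 and 116 at 14, 149 and 165 at 18, 144 and 146 in 1/2, 115 and 118 in 1/4, and 99.7 and 105 in 1/8. Both 1/8 libraries were below both whole oocytes at 18 cycles, at a log2 fold change of -0.82 that did not pass (SE 0.28, edgeR adjusted p = 0.0305), while DESeq2 called it lower. Per kb it was 41.1 times Ube2f, with 88.8% and 94.9% unique words in the pair. Atp6v0c-ps2, a copy of the c subunit of the vacuolar proton pump at 99.8% identity, had 14.2 and 13.5 CPM at 10 cycles, 16.0 and 15.0 at 14, 17.6 and 12.9 at 18, 31.6 and 25.3 in 1/2, 26.1 and 25.9 in 1/4, and 19.5 and 8.81 in 1/8. Its 1/2 and 1/4 libraries were the highest, at a log2 fold change of 0.86 in 1/2 that did not pass (edgeR adjusted p = 0.409). Only 9.86% of its words are unique.

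Others that rose in 1/8, named after their values were seen, were Gm7868 and Gm15754. Gm7868, a copy of the thioredoxin-domain gene Txndc9 at 98.7% identity, had 22.2 and 24.5 CPM at 10 cycles, 19.6 and 27.2 at 14, 3.31 and 3.52 at 18, 5.22 and 6.39 in 1/2, 5.21 and 9.51 in 1/4, and 26.0 and 22.3 in 1/8. Its rise was 2.63 (SE 0.58, edgeR adjusted p = 0.00187), beside 2.06 for Txndc9 (edgeR adjusted p = 5.18e-05). Only 60.7% of its words are unique. Gm15754, a copy of Btf3, a partner of nascent polypeptides at the ribosome, had 7.76 and 10.6 CPM at 10 cycles, 7.77 and 8.11 at 14, 0.663 and 1.17 at 18, 2.24 and 4.45 in 1/2, 1.99 and 2.38 in 1/4, and 10.0 and 11.2 in 1/8. That rise was 3.37 (SE 0.91, edgeR adjusted p = 0.00851) from 2 counts in each whole oocyte at 18 cycles, with a log2 fold change of -0.12 for Btf3 (edgeR adjusted p = 0.797). It did not pass whichever of the 8 libraries was left out (edgeR adjusted p up to 0.0985), and Gm7868 did not without either whole oocyte at 18 cycles or replicate 1 of 1/8 (edgeR adjusted p up to 0.0305).

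Across cycle numbers the pseudogenes are described without a test, because the libraries at 10 and 14 cycles chose them. Their median log2 ratio of 18 cycles over 10 and 14 was -1.68, against -0.32 for coding genes and -1.97 for lincRNAs under the same rule. Lower at 18 cycles were 88.2% of the pseudogenes (67 of 76), 59.7% of the coding genes and 92.6% of the lincRNAs. Among the exceptions were Rps4l, higher by 2.35 on the log2 scale, 4931440P22Rik by 1.58, 2810025M15Rik by 1.42, Gm31941 by 1.32, Rpl37rt by 0.86 and Gm5434 by 0.55. Between 10 and 14 cycles the median log2 ratio was 0.06, with 49 of the 76 higher at 14.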

How the data were processed

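The authors trimmed reads with cutadapt 2.5, aligned them to mm10 with STAR 2.7.2a and counted them per gene with HTSeq 0.9.1, per the submitters' processing notes. They deposited raw read counts for genes and ERCC molecules, and their tally of reads that mapped to several places was 0 in every library. Reads on no feature (6.90% to 10.8% of each library) were left out of totals. CPM used counts on genes. Genes needed 5 counts or more in 2 or more of the 8 libraries at 18 cycles and were fitted in 4 groups by edgeR 4.0.16's quasi-likelihood test (R 4.3.3) on median-ratio size factors, with Benjamini-Hochberg adjustment over all genes and a threshold of 0.01. Each SE is the absolute log2 fold change divided by the square root of that test's F statistic. The fit was tested on simulated data. Alternatives were ERCC and TMM size factors, DESeq2 1.42.0, other filters, a replicate block, leaving out each library and other definitions of members. Parents came from blastn 2.17.0 against GENCODE 21 coding transcripts (at least 70% identity over at least 50% of the copy), and lengths are exonic. Parent families were short lists of gene symbols that do not hold every gene of a kind.

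Named were the 10 pseudogenes with the highest CPM and the 3 highest of the transcribed type, the 3 on each side of the threshold, those called in a fraction with at least 50 normalized counts and groups that did not overlap (up to 5 each way in 1/8 and 2 each way in 1/2 and 1/4), the 5 highest and 3 lowest ratios to the parent, up to 5 with -ps symbols, and the 2 highest of each family of at least 3. All other genes named were chosen after their values were seen. Members and lists were chosen with earlier results of these data known.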

Additional observations from a re-analysis of the deposited data

How the results depend on the processing

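With size factors from the ERCC molecules, which scale to the added spike-in, 22 pseudogenes were lower in 1/2, 37 in 1/4 and 64 in 1/8. None were higher in 1/8, and the medians were -1.71, -2.17 and -3.73. The reference, whole oocytes at 18 cycles, had 1611 and 1474 ERCC counts beside 3017069 and 1706478 on genes. At 10 cycles these were 35852 and 25528 beside 11597144 and 9189672. Falls on this scale thus need not equal the change of input, and what sets them was not tested. Among the pseudogenes of the naming rule and those called in 1/8, the ones that passed the threshold with 1 of the scalings or both and changed sign were, in 1/2, Speer5-ps1 (-1.85), Gm6201 (-2.13), 4931440P22Rik (-1.40), 2810025M15Rik (-1.95) and Gm5514 (-2.10). In 1/4 they were Speer5-ps1 (-2.39), Gm15681 (-2.43), Gm49591 (-1.80), Gm48892 (-2.24), 2810025M15Rik (-2.60), Gm12633 (-2.17), Gm18757 (-2.56), Atp6v0c-ps2 (-2.14) and Gm5514 (-2.74). In 1/8 they were Speer5-ps1 (-3.32), Gm15681 (-4.19), Gm49591 (-2.94), Gm6201 (-3.45), Gm48892 (-2.08), Cldn25-ps (-2.47), Gm5946 (-2.54), Gm5177 (-4.03), Gm12633 (-3.19), Gm3333 (-3.02), Gm15501 (-2.71), Gm7868 (-2.31), Gm10364 (-2.74), Gm18757 (-3.87), Zfp813-ps (-3.18), Gm10509 (-1.34), Rpl19-ps3 (-4.16), Gm5371 (-3.91), Gm15754 (-1.53) and Gm19096 (-3.64). All of these passed the threshold with the ERCC molecules except Gm10509 and Gm15754 (edgeR adjusted p = 0.303 and 0.222), which had passed as rises with the median ratio. DESeq2 called 1 higher in 1/2, 1 higher in 1/4, and 5 lower and 11 higher in 1/8 (10.7% and 8.48% of all genes), and no filter gave 1 higher in 1/4. Requiring 10 counts in every library left 33 pseudogenes, with medians of 0.36 in 1/4 and 0.69 in 1/8. At least 100 counts in the libraries of the rule left 42 members (median 0.42 in 1/2), and at least 20 counts gave 143. Without exonic overlap the median was 0.91 in 1/4 and 1 was lower in 1/8. Where a value changed under these settings, the cause was not tested.

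The summed CPM of the members in whole oocytes at 10 cycles was 1389 without members that overlap other exons, 2410 with reads on no feature in the total and 2149 without Speer5-ps1. The summed CPM of the members in whole oocytes at 14 cycles was 1474, 2611 and 2296 in that order. For the summed CPM of the members in whole oocytes at 18 cycles the first 2 settings gave 1016 and 1776. The summed CPM of the members in 1/2 was 1253 and 2036 with these, the summed CPM of the members in 1/4 was 1167, 1991 and, without Speer5-ps1, 2022, and the summed CPM of the members in 1/8 was 1283, 2320 and 2166. Members with an accepted parent gene numbered 31 at 90% identity or more, and the median ratio of member to parent in CPM per kb became 0.899 when taken without a length correction.

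Leaving out 1 library at a time, the medians ranged from 0.13 to 0.44 in 1/2, 0.39 to 0.68 in 1/4 and 0.99 to 1.27 in 1/8, the calls were 0 to 0 in 1/2 and 1/4 in both directions by edgeR (6 and 13 at an unadjusted p under 0.05 with all libraries), and in 1/8 from 5 to 9 were higher and 1 to 3 lower. Lower was 1 without replicate 2 of the whole oocytes at 18 cycles or of 1/8, and higher was 5 without either whole oocyte at 18 cycles or replicate 1 of 1/8. Members numbered 76 to 89. Summed CPM ranged from 2686 to 2722 at 10 cycles, 2841 to 3023 at 14, 1835 to 2069 at 18, 2089 to 2316 in 1/2, 2134 to 2195 in 1/4 and 2453 to 2616 in 1/8. A group left with 1 library was assumed to vary like the others. Of 240 values of named pseudogenes in 1/8, 207 kept their side of the threshold, 32 no longer passed and 1 newly passed.

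With a replicate block 10 were higher and 3 lower in 1/8 with a median of 1.14, the counts in 1/2 and 1/4 were 0 in both directions, and the medians there were 0.29 and 0.51. The block changed no call of a named pseudogene, and deviations of same-numbered libraries correlated from -0.08 to 0.10 between each fraction and the whole oocytes, which are separate cells, over 8330 genes. Between fractions the values were -0.11 (1/2 and 1/4), 0.08 (1/2 and 1/8) and 0.02 (1/4 and 1/8), so the numbers were not taken to pair the samples. Under TMM 11 were higher and 2 lower in 1/8. With it 1 named pseudogene, 2810025M15Rik, no longer passed, and Gm9403 newly passed as higher (edgeR adjusted p = 0.00964). Few counts at 18 cycles limit the weakest genes.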
